A study of Mus musculus with 7 samples.

Results

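Tight junctions seal the space between neighbouring epithelial cells. Claudins are four-pass membrane proteins that polymerise into the junction strands, and the mixture of claudins in a cell sets how leaky the seal is and to which ions. Occludin, encoded by Ocln, is a further strand protein, whereas Tjp1 (also called ZO-1) and Magi3 are PDZ-domain scaffolds that sit under the membrane. In normal epidermis the working tight junctions lie in the granular layer of differentiating keratinocytes, but several claudins are also made in lower layers, glands and hair follicles. The levels of 10 such genes were followed here: the claudins Cldn1, Cldn3, Cldn4, Cldn7, Cldn8, Cldn12 and Cldn23, the strand protein Ocln, and the scaffolds Tjp1 and Magi3. They were picked by name out of 55423 annotated features with their levels in these tumours already known, so their values, and the calls printed with them, describe these tumours and are not independent evidence of a difference.

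The tumours were cutaneous squamous cell carcinomas from mice on a C57BL/6J background. Every mouse carried a heterozygous BRAFV600E allele and Ivl-CreERT2, a tamoxifen-inducible Cre driven by the involucrin promoter, which is active in suprabasal cells and in part of the basal layer. The Ivl:BRAFV600E group had 3 tumours (RBAV23-4g, RBAV25-3j and RBAV27-2c). The Ivl:BRAFV600E-SOX2LSL group had 3 tumours (RBBD12-1j, RBBD5-2a and RBBD9-2f) and carried in addition 1 copy of a Rosa26 allele from which Cre releases SOX2 and EGFP. RBAV23-4g and RBAV25-3j also had 1 Rosa26 tdRFP reporter copy, and RBAV27-2c had none. Tamoxifen was painted on the back skin of mice aged 7 to 10 weeks by the sample labels (the study's methods give a somewhat older range), and tumours were taken at the clinical endpoint. All 3 Ivl:BRAFV600E-SOX2LSL tumours were taken sooner after induction than any Ivl:BRAFV600E tumour, so genotype and time since induction cannot be told apart. RBAV23-4g, RBAV25-3j and RBBD9-2f came from females and the other tumours from males. RNA was sequenced after depletion of ribosomal RNA and from whole tumour, so that fewer cells of a type and less RNA per cell cannot be told apart. Gene counts per tumour summed to between 23565432 and 31152826. The transgene followed the labels: Sox2 stood at 0.716, 0.508 and 0.238 CPM (counts scaled to the library size with edgeR's TMM factors) in the Ivl:BRAFV600E tumours and at 182, 155 and 158 CPM in the Ivl:BRAFV600E-SOX2LSL tumours, and EGFP had 0 counts in each of the former and 139, 110 and 113 CPM in the latter.

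Marker genes of several cell types differed in level between the tumours. Across all genes 2.39% were called higher with SOX2 and 1.51% lower by the test described below. Summed over 14 genes of the suprabasal keratinocyte, the level ranged from 94610 to 114094 CPM in Ivl:BRAFV600E tumours and from 4171 to 30904 CPM in Ivl:BRAFV600E-SOX2LSL tumours. Of those 14 genes all had a lower fitted level with SOX2, 1 passed the test (the desmosomal cadherin Dsg1a, with none higher), and none was at 0 in any tumour. Without RBBD12-1j 7 of the 14 were called lower, beside 3.10% of all genes. Over all tumours DESeq2 called 9 of the 14 (18.2% of all genes) and limma 6 (8.77%). Skeletal muscle genes summed to between 2.39 and 4.85 CPM and between 260 and 1105 CPM respectively, and 9 of 11 were called higher, Ckm, Myh4, Myl1 and Pvalb being at 0 counts in at least 1 tumour without SOX2. Without RBBD12-1j 10 of the 11 were called higher, beside 3.59% of all genes. Immune cell genes summed to between 61.9 and 129 CPM against 139 to 445 CPM, with 2 of 7 called higher (Ptprc and Csf1r), and Cd79a had too few reads to test. Hair follicle genes summed to between 24.9 and 401 CPM against 16.4 to 194 CPM, all 9 with fitted values below 0 (median log2 fold change -1.18) and 1, Hoxc13, called lower. Krt25, Krt28, Krt71 and Krt35 were at 0 counts in at least 1 tumour. Fibroblast genes summed to between 834 and 5275 CPM against 4174 to 8719 CPM, with 7 of 8 fitted values above 0 (median 1.08). None of the 8 was called by edgeR. Of the 8, 2 had an unadjusted p under 0.05 (25.7% of all genes), DESeq2 called 2 (18.2%) and limma 1 (8.77%). The pan-epithelial genes used below for a scaling summed to between 22833 and 42937 CPM against 12035 to 30548 CPM. Their median log2 fold change was -0.39, with 5 of 12 fitted values above 0, 7 below and none called by edgeR. Without RBBD12-1j 3 of the 12 were called lower, beside 3.10% of all genes. The list includes Cdh1 and Grhl2, which are also described below. RBBD12-1j stood apart from the other tumours. It had the lowest Krt1 (1010 CPM, against 11874 and 13012 CPM in the other two tumours with SOX2) and the highest levels of the simple epithelial keratins Krt8, Krt18 and Krt19 (106, 91.2 and 86.8 CPM, against 8.65 CPM or less elsewhere). Results that rest on RBBD12-1j are given with and without it. The part of these cell types in the values below was not tested except where a value is given.

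Promoter sequences show what is written in front of the annotated starts of these genes, some of which lie inside the gene. The RefSeq-based promoter table on GRCm38.p6 held 12 start sites for 8 of the 10 members, that is all but Cldn8 and Cldn23. The 250 bases before each start were searched on both strands for CAGGTG, an E-box core known to be bound by the Snail family of repressors. These letters occurred at 3 of the 12 member starts, those of Cldn4, Cldn7 and Ocln, and at 17.2% of all 32851 starts in the table. They are shown because they are shared by the strand proteins Cldn7 and Ocln, described below as higher with SOX2, and by Cldn4, which was not called. Each line runs 5′ to 3′ on the gene's strand with the E-box letters, read on either strand, in capitals:
Cldn7, plus strand, chr11:69965312-69965341: tttcttcctcttCACCTGgacgaggagggg
Cldn7, plus strand, chr11:69965352-69965381: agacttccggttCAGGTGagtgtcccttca
Ocln, minus strand, chr13:100552694-100552723: ccatcggagtttCAGGTGaatgggtcaccg
Ocln, minus strand, chr13:100552549-100552578: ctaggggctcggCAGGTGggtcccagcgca
Cldn4, minus strand, chr5:134946931-134946960: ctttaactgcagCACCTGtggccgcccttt
The Cldn7 pair lies 97 and 57 bases before a start at position 69965421 of chromosome 11, and the same letters were not in the 250 bases before the gene's other start at 69964779. At Ocln the pair lies 213 and 68 bases before the start at 100552498 of chromosome 13, and the window of the start at 100552718 did not hold the letters. The Cldn7 pair and the Ocln pair thus lie within the annotated genes, in windows that each overlap 2 annotated exons.

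The whole 250 bases of Cldn4 and of Magi3 are printed as a contrast between a claudin at a high level in both groups and the scaffold that was called lower with SOX2. Capitals mark the E-box letters above and 5 further motifs, each read on either strand. TGANTCA is the AP-1-type element and was at 6.75% of all starts. ACAAAG was at 16.5% and ACAATG at 10.7%, and both are SOX-type cores. The GC box GGGCGG was at 32.7% of all starts. The grainyhead-type motif AACNNGTT was at 3.64%. The AP-1-type and grainyhead-type motifs are their own reverse complement, and a match of either was counted once.
Cldn4, minus strand, chr5:134946935-134947184: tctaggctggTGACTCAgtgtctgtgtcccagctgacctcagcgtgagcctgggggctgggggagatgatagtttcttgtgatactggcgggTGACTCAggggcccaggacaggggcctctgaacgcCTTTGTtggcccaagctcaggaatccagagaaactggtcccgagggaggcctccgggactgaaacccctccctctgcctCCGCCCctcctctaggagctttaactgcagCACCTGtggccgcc
Magi3, minus strand, chr3:104220407-104220656: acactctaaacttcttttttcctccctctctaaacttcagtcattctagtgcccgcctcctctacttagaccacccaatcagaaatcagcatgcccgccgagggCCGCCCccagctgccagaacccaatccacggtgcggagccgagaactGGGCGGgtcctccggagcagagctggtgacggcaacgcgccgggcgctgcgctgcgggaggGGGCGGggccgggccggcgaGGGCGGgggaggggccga
The Cldn4 window held 2 copies of TGANTCA, and no other member start did. It also held ACAAAG once, as did the Cldn1 window, which makes 2 of the 12 member starts. GC boxes were at 10 of the 12 member starts, among them both windows printed. The same Cldn12 box lies in overlapping windows of different starts and was counted at each, so the starts are not all separate promoters. In the Magi3 window they were the only motif found, 4 times, and 66.4% of its bases were G or C against 62.0% in Cldn4. ACAATG and AACNNGTT were at none of the 12 member starts. A match in letters is not a bound site, and none of these counts bears on whether a factor acts on the gene.

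**Figure D1:**
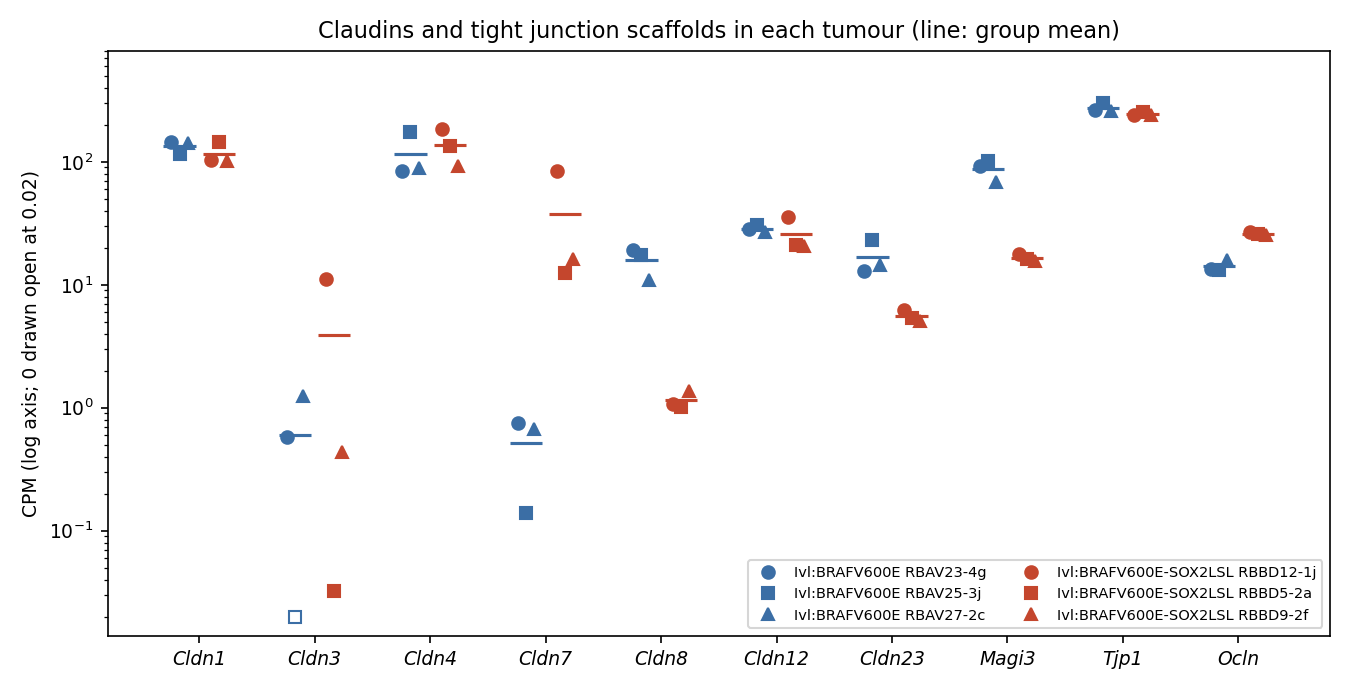
Level of each of the 10 genes in each tumour, in CPM on a log axis, blue for the 3 Ivl:BRAFV600E tumours and red for the 3 Ivl:BRAFV600E-SOX2LSL tumours, with a line at each group mean. Cldn8, Cldn23, Magi3 and Tjp1 lie lower in all red tumours and Cldn7 and Ocln higher, whereas Cldn1, Cldn3, Cldn4 and Cldn12 overlap, and Cldn3 in RBAV25-3j had 0 counts.

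All 10 genes passed the filter, which asked for 5 reads in any tumour, and each of the 10 had more than 5 reads in at least 1 tumour of both groups, so none entered through 1 group alone. By edgeR's quasi-likelihood test, with Benjamini-Hochberg adjustment over 24433 genes and a threshold of 0.05, 5 of the 10 were called (2 higher with SOX2, Cldn7 and Ocln, and 3 lower, Cldn8, Cldn23 and Magi3), where 3.90% of all genes were called. The groups did not overlap for 6 of the 10, which 34.2% of all genes also showed. The median log2 fold change was -0.16 over the 10 genes and 0.04 over all genes. The genes were chosen from this very contrast, so the calls and shares are a description and nothing is read from them, and the fits with a tumour left out use the same tumours again.

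Cldn8 encodes a barrier-forming claudin known from tight epithelia such as the distal nephron. The gene (ENSMUSG00000050520, chr16:88560828-88563183, minus strand) stood at 19.2, 17.3 and 10.8 CPM in RBAV23-4g, RBAV25-3j and RBAV27-2c and at 1.06, 1.004 and 1.37 CPM in RBBD12-1j, RBBD5-2a and RBBD9-2f. Every tumour with SOX2 was far below every tumour without it. The means were 15.8 ± 4.39 and 1.15 ± 0.198 CPM (SD, n = 3 each), a 13.8-fold ratio and a log2 fold change of -3.78 (SE 0.29). The values with SOX2 rest on 38, 31 and 38 counts, so the gene was reduced but not absent. Leaving out any 1 of the 6 tumours kept the call, with log2 fold changes between -3.99 and -3.62, so the difference did not rest on RBBD12-1j. Aqp5, the water channel of sweat glands, which also belonged to the list of gland genes, was called lower as well, at 280, 271 and 149 CPM without SOX2 and 3.22, 18.7 and 24.3 CPM with it. Aqp5 was the only one of the 10 genes of that list called (1.51% of all genes were called lower), 4 had 0 counts in at least 1 tumour (Krt8, Foxa1, Atp6v1b1 and Cftr), and the list's summed level was 394, 369 and 246 CPM without SOX2 and 534, 148 and 117 CPM with it, the high value being RBBD12-1j and the other two tumours with SOX2 lying below every tumour without it. Over all tumours 8 of the 10 genes had fitted values above 0 (median log2 fold change 3.68), and without RBBD12-1j 4 of the 9 then tested (median -0.0078), of which 2 were called lower, Aqp5 and Krt19, beside 3.10% of all genes. The part of gland cells in the Cldn8 difference was not tested.

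Magi3, an inverted membrane-associated guanylate kinase that binds membrane receptors at cell contacts, was the member scaffold called lower. It occupies chr3:104013259-104220374 on the minus strand (ENSMUSG00000052539). Its level was 92.8, 102 and 68.1 CPM without SOX2 and 17.8, 16.1 and 15.7 CPM with SOX2. The 3 tumours with SOX2 lay close together and well under the others. Group means were 87.7 ± 17.6 and 16.5 ± 1.13 CPM (SD, n = 3 each), a 5.31-fold ratio and a log2 fold change of -2.41 (SE 0.18). All 6 fits with a tumour left out called it, at log2 fold changes from -2.56 to -2.29. Across all genes, 0.0778% were called both with all tumours and in each of those 6 fits. Its paralogues Magi1 and Magi2, named here after their values were seen, had log2 fold changes of -0.02 (SE 0.14) and 0.29 (SE 0.40) and were not called (adjusted p = 0.943 and 0.682), and Magi2 stood at -0.092 without RBBD12-1j. Magi1 stood at 25.1, 23.37 and 28.1 CPM and then at 22.8, 26.1 and 26.6 CPM. Within each tumour Magi3 was thus 2.43 to 4.38 times Magi1 in CPM without SOX2 and 0.589 to 0.780 times with it, a ratio that is not corrected for transcript length.

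Cldn23, a claudin of barrier epithelia encoded by a single exon, was the further member with a lower level. The gene lies at chr8:35824712-35826559 on the minus strand (ENSMUSG00000055976). Values were 13.0, 23.2 and 14.4 CPM in the Ivl:BRAFV600E tumours and 6.21, 5.38 and 5.06 CPM in the Ivl:BRAFV600E-SOX2LSL tumours. The groups did not overlap, and RBAV25-3j was above the other two tumours of its group. The log2 fold change was -1.60 (SE 0.26), or 3.04-fold lower between the means. The call held in 1 of the 6 fits with a tumour left out, that without RBBD12-1j, and was lost under scaling by pan-epithelial genes (log2 fold change -1.15) and with sex as a covariate (-1.58).

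Cldn7 encodes a claudin that binds EpCAM and is found along the lateral membrane of many simple epithelia, outside the tight junction as well as in it. At chr11:69964779-69967885 on the plus strand (ENSMUSG00000018569), it was close to silent in Ivl:BRAFV600E tumours, with 0.750, 0.139 and 0.665 CPM from 22, 3 and 14 counts. In the tumours with SOX2 it stood at 84.8, 12.6 and 16.1 CPM. Each of these was above every tumour without SOX2, and RBBD12-1j was far above the other two. The means were 0.518 ± 0.331 and 37.8 ± 40.7 CPM (SD, n = 3 each), with a log2 fold change of 6.15 (SE 0.99). Without RBBD12-1j the log2 fold change was 4.75 and the call remained. It remained in 3 of the 6 fits with a tumour left out and was lost without any one of the Ivl:BRAFV600E tumours and with sex as a covariate (log2 fold change 5.61).

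Epcam, whose product stabilises claudin-7 at the membrane, was on the list of other tight junction membrane genes and was called higher. Its levels were 30.0, 8.04 and 18.5 CPM without SOX2 and 428, 141 and 155 CPM with SOX2, a log2 fold change of 3.68 (SE 0.63, edgeR adjusted p = 0.031), and of 2.96 without RBBD12-1j (adjusted p = 0.016). Within each group the tumours ranked in the same order for Epcam and for Cldn7, RBAV23-4g above RBAV27-2c above RBAV25-3j, and RBBD12-1j above RBBD9-2f above RBBD5-2a. In CPM, Epcam was 27.9 to 58.0 times Cldn7 without SOX2 and 5.05 to 11.2 times with it. The simple epithelial keratin Krt8 stood at 0.648, 0 and 1.05 CPM and then at 106, 8.65 and 2.31 CPM, highest in RBBD12-1j as well but in another order among the other tumours. Krt8 had a log2 fold change of 6.10 (SE 1.67), and of 3.26 without RBBD12-1j, and did not pass the test (edgeR adjusted p = 0.083). Its part in the Cldn7 and Epcam values was not tested.

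Ocln was the other strand gene with a higher level (ENSMUSG00000021638, chr13:100496507-100552718, minus strand). Its values of 13.4, 13.1 and 16.0 CPM without SOX2 and 26.9, 25.7 and 25.5 CPM with SOX2 were tight within both groups and did not overlap. The means of 14.2 ± 1.595 and 26.0 ± 0.746 CPM (SD, n = 3 each) gave a 1.84-fold ratio and a log2 fold change of 0.88 (SE 0.14). The fold change stayed between 0.82 and 0.97 whichever tumour was left out, but the call held in 1 of those 6 fits, and not with sex as a covariate (0.83).

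The remaining 5 members were not called, and for these the size and error are given rather than a statement of no change. Cldn1, the claudin whose loss in mice breaks the epidermal water barrier, stood at 144, 115 and 142 CPM without SOX2 and 103, 145 and 102 CPM with SOX2. These overlap, with a log2 fold change of -0.20 (SE 0.18). Cldn4, a barrier claudin of the granular layer and of many carcinomas, stood at 84.3, 175 and 88.8 CPM and at 183, 134 and 92.4 CPM. The groups overlapped, with a log2 fold change of 0.24 (SE 0.35) that turned to -0.037 without RBBD12-1j. Cldn12, an atypical claudin that lacks the PDZ-binding tail of the others, stood at 28.6, 30.5 and 26.7 CPM and at 35.4, 21.1 and 20.6 CPM, RBBD12-1j being above and the other two tumours with SOX2 below every tumour without it. Its log2 fold change was -0.16 (SE 0.23), and -0.46 (SE 0.13) without RBBD12-1j, not called either way.

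Tjp1, the scaffold that ties claudins to actin, had the highest CPM of the 10 genes in each tumour. It stood at 265, 302 and 261 CPM without SOX2 and 241, 256 and 242 CPM with SOX2. The 3 tumours with SOX2 were all below the others by a small margin, a log2 fold change of -0.17 (SE 0.12). Under scaling by 12 pan-epithelial genes, which moved the centre of the fitted values over all genes from 0.04 to 0.45, the signs of Cldn1, Cldn12 and Tjp1 turned positive (0.18, 0.33 and 0.25), and none of them was called. Relative to that median they stayed below the general shift.

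Cldn3, a barrier claudin of simple epithelia, was low in all tumours but 1. It had 0.580, 0 and 1.24 CPM without SOX2 and 11.2, 0.0324 and 0.433 CPM with SOX2, from 17, 0 and 26 and from 400, 1 and 12 counts. RBBD12-1j, the tumour with the high Krt8, Krt18 and Krt19, alone held the higher level. The log2 fold change of 2.69 (SE 1.76) became -1.39 without that tumour, so no direction is given for Cldn3. In the annotation 40 bases of its exons overlap Wbscr25 on the other strand, and its counts may include reads of that gene. Exons of the other 9 members overlap no other gene.

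**Figure D2:**
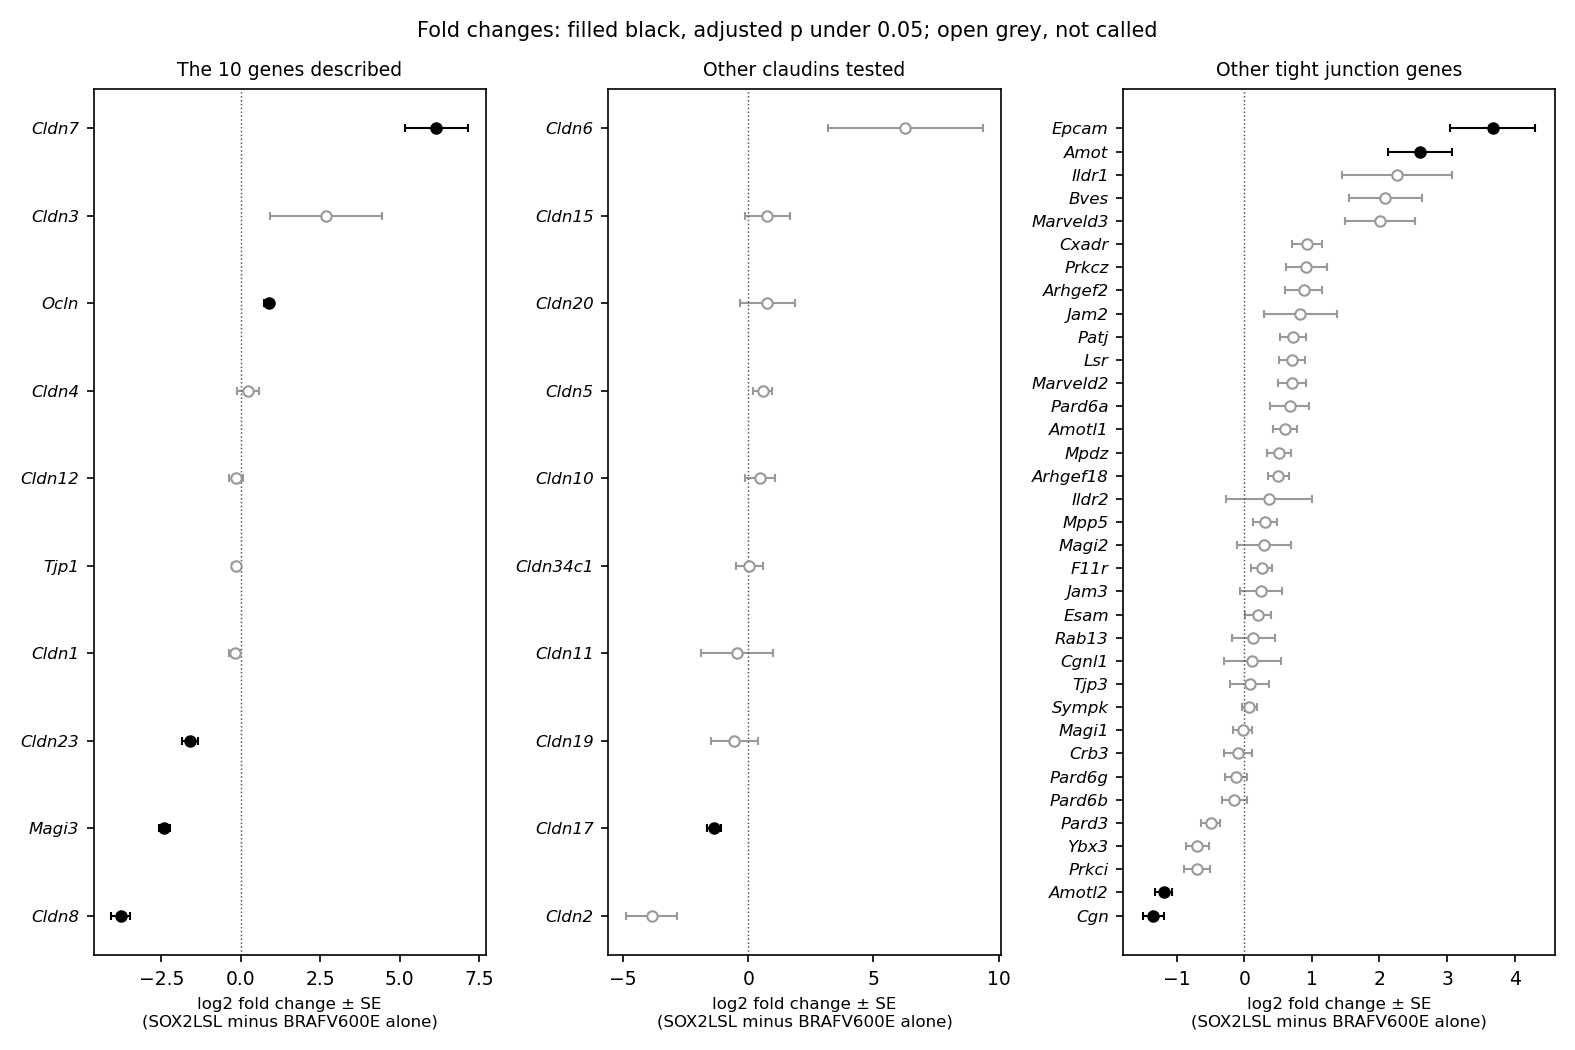
Log2 fold change with its standard error for the 10 genes, the 10 other claudins tested and all but 1 of the 36 other tight junction genes tested, Ivl:BRAFV600E-SOX2LSL over Ivl:BRAFV600E, filled where the adjusted p was under 0.05. Of the filled genes, Cldn7, Epcam, Amot and Ocln lie above 0 and Cldn8, Magi3, Cldn23, Cldn17, Cgn and Amotl2 below it, while Cldn6 and Cldn2, at the ends of the middle panel, are open; the horizontal scales differ between panels.

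The makeup of the claudin mixture can be read per transcript length. CPM were divided by the annotated exon length in kilobases and taken as a share of the sum over the 17 claudins tested. Cldn4 was the most abundant claudin in every tumour, with 42.7, 62.7 and 45.8% of the pool without SOX2 and 52.5, 59.5 and 53.8% with SOX2. Cldn1 came second in every tumour but RBBD12-1j, at 27.4, 15.4 and 27.4% and at 11.02, 24.1 and 22.3%. Together they made up 70.1 to 78.1% of the pool without SOX2 and 63.5 to 83.6% with it, so the bulk of the mixture was the same pair in both groups. Without the division by length Cldn1 led in the mean without SOX2 (42.2% against 35.0% for Cldn4), so the order of Cldn1 and Cldn4 depends on the scale.

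Among the 17 claudins, the shares of Cldn2, Cldn7, Cldn8, Cldn17 and Cldn23 did not overlap between the groups. In CPM, 34.2% of all genes did not overlap either. Cldn2 had 0.132, 0.0181 and 0.147% without SOX2 and 0.00438, 0.00787 and 0% with it, from at most 14 counts in a tumour. Cldn8 made up 7.49, 4.79 and 4.31% of the pool without SOX2 and 0.235, 0.344 and 0.616% with it. The share of Cldn23 was 6.48, 8.17 and 7.32% without SOX2 and 1.75, 2.35 and 2.89% with it. Cldn17, no member, had 7.41, 3.03 and 5.13% without SOX2 and 1.29, 1.58 and 2.74% with it. Cldn7 had the larger shares with SOX2, with 0.354, 0.0463 and 0.320% without SOX2 and 22.6, 5.21 and 8.74% with it. In RBBD12-1j it was the second claudin of the pool, ahead of Cldn1. The summed level of the 17 claudins overlapped between the groups, with 109, 154 and 107 CPM per kb without SOX2 and 192, 124 and 94.6 CPM per kb with it.

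**Figure D3:**
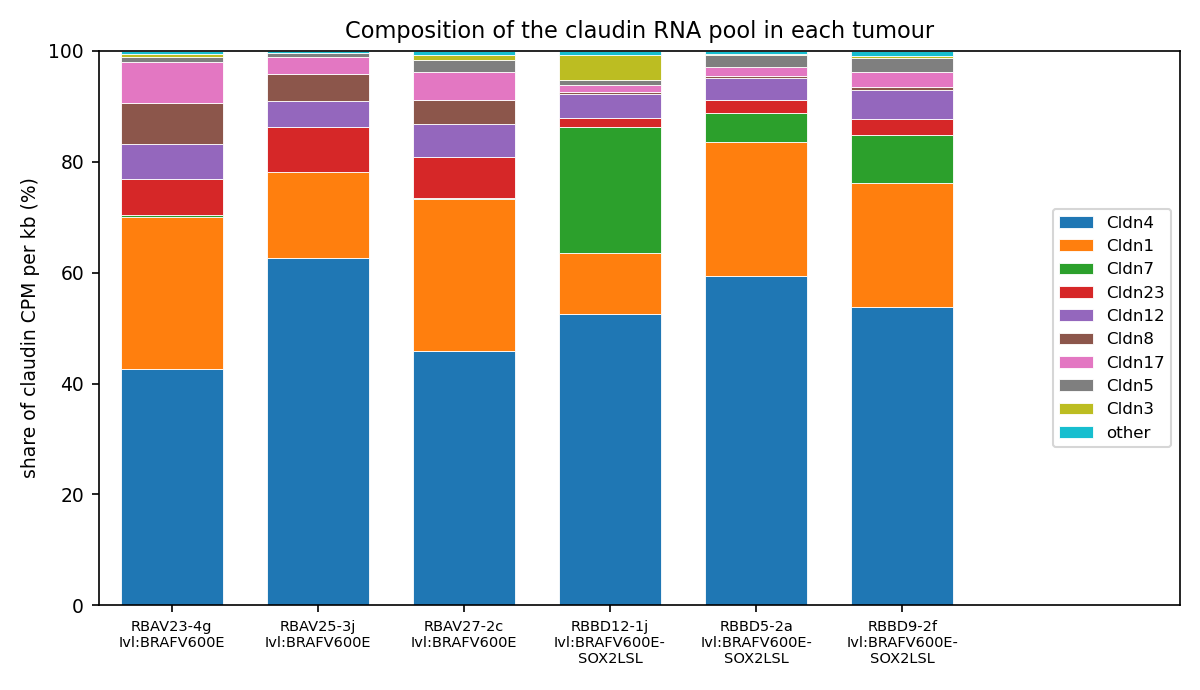
Share of each claudin in the summed CPM per kb of 17 claudins, in percent, with 1 stacked bar per tumour. Cldn4 and Cldn1 fill most of every bar; the green Cldn7 segment is 5.21% or more in the 3 Ivl:BRAFV600E-SOX2LSL tumours and 0.354% or less in the others, and the Cldn8 segment is 0.616% or less and 4.31% or more respectively.

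Per kilobase, the 10 genes ranked as follows. In mean CPM per kb without SOX2 the order was Cldn4 (63.9 ± 28.1, SD, n = 3), Tjp1 (35.3 ± 2.87), Cldn1 (27.6 ± 3.39), Magi3 (10.3 ± 2.07), Cldn23 (9.14 ± 2.98), Cldn12 (6.77 ± 0.453), Cldn8 (6.70 ± 1.86), Ocln (3.36 ± 0.378), Cldn3 (0.481 ± 0.491) and Cldn7 (0.266 ± 0.170). Magi3 and Cldn23, Cldn23 and Cldn12, Cldn12 and Cldn8, and Cldn3 and Cldn7 are neighbours within their spread. With SOX2 the first 3 places were the same, at 75.1 ± 25.1, 31.5 ± 1.07 and 24.1 ± 5.03 CPM per kb. Cldn7 moved from the last place to the fourth (19.4 ± 20.9), Ocln from the eighth to the fifth (6.17 ± 0.177), Magi3 from the fourth to the ninth (1.94 ± 0.132), and Cldn8 from the seventh to the last (0.487 ± 0.0840). The lower places rest on RBBD12-1j, which alone lifted the mean of Cldn3: without it Magi3 was eighth, Cldn8 ninth and Cldn3 last, at 1.86, 0.504 and 0.185 CPM per kb, and Cldn7 kept the fourth place at 7.36 CPM per kb. Cldn7 there spans its neighbours because of RBBD12-1j, and Ocln and Cldn12 (6.08 ± 1.99) did not differ beyond their spread.

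Members of the claudin family lie in pairs in the genome. Cldn8 and Cldn17, both on the minus strand of chromosome 16, are 53849 bases apart with no annotated gene between them. Cldn17 (chr16:88505807-88506978), an anion channel claudin and no member of the list, was called lower too. It stood at 9.45, 5.45 and 6.41 CPM without SOX2 and 2.91, 2.30 and 3.03 CPM with SOX2, without overlap, a log2 fold change of -1.37 (SE 0.28, edgeR adjusted p = 0.045). The call held in 1 of the 6 fits with a tumour left out, and was lost under pan-epithelial scaling (-0.97) and with sex as a covariate (-1.30). Cldn8 exceeded Cldn17 in CPM in each tumour without SOX2, by 1.69 to 3.18 times, and was below it in each tumour with SOX2, at 0.365 to 0.452 times. Cldn3 and Cldn4, 39279 bases apart on chromosome 5 with no gene between them and on opposite strands, did not share a level: Cldn4 had at least 1868 counts in every tumour and Cldn3 at most 400.

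Of the other claudins, 27 in the annotation, 10 passed the filter, and Cldn17 was the 1 called (0 higher and 1 lower, beside 2.39% and 1.51% of all genes). By DESeq2 2 of the 10 were called (18.2% of all genes) and by limma 1 (8.77%), and 2 had an unadjusted p under 0.05 (25.7%). Their median log2 fold change was 0.25. Cldn5, the claudin of blood vessels, was the further one with a mean of 1 CPM or more. Its levels were 1.43, 1.76 and 3.23 CPM without SOX2 and 2.38, 3.89 and 3.29 CPM with SOX2, which overlap (log2 fold change 0.58, SE 0.38, edgeR adjusted p = 0.372). Cldn6, named after its values were seen, had counts in RBBD12-1j only, at 1.01 CPM. The other 7 tested stayed under 1 CPM in each tumour.

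Among 13 tested membrane genes of the junction outside the claudins, Epcam was the 1 called higher and none was lower (2.39% and 1.51% of all genes), and 12 of the 13 had fitted values above 0, with a median log2 fold change of 0.71. Marveld2, which encodes tricellulin, the protein of three-cell corners, had a log2 fold change of 0.71 (SE 0.21) with levels of 7.91, 7.02 and 8.51 CPM and 16.1, 11.4 and 10.7 CPM, and did not pass (edgeR adjusted p = 0.101). Lsr, angulin-1, which recruits tricellulin to those corners, was alike at 19.3, 20.1 and 19.6 CPM and 40.8, 26.6 and 28.8 CPM (log2 fold change 0.71, SE 0.19, edgeR adjusted p = 0.076). Neither overlapped between groups, as was so for 6 of the 13 genes, all higher, beside 18.2% of all genes. F11r, the junctional adhesion molecule JAM-A, overlapped at 94.2, 136 and 114 CPM and 129, 150 and 132 CPM (log2 fold change 0.26, SE 0.16, edgeR adjusted p = 0.353).

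Among 23 scaffold and polarity genes tested, 1 was called higher and 2 lower (2.39% and 1.51% of all genes), with a median log2 fold change of 0.13. Cgn, cingulin, a partner of Tjp1 that restrains RhoA signalling at the junction, was lower, with 56.1, 71.0 and 55.1 CPM without SOX2 and 20.9, 25.9 and 25.03 CPM with SOX2 (log2 fold change -1.34, SE 0.16, edgeR adjusted p = 0.014). Of the angiomotin family, which binds junction proteins and the Hippo effector YAP, 2 members were called, in opposite directions. Amotl2 was lower at 186, 225 and 196 CPM and 85.5, 89.8 and 90.5 CPM (log2 fold change -1.19, SE 0.12, edgeR adjusted p = 0.010), and Amot was higher at 2.76, 0.970 and 1.28 CPM and 13.7, 11.01 and 6.10 CPM (log2 fold change 2.60, SE 0.48, edgeR adjusted p = 0.036). The third member, Amotl1, named after its values were seen, did not overlap between groups at 182, 141 and 165 CPM and 302, 217 and 224 CPM and was not called (log2 fold change 0.61, SE 0.18, edgeR adjusted p = 0.096). Calls held in 4 of the 6 fits with a tumour left out for Cgn and Amotl2, in 2 for Amot and in 1 for Epcam. The call of Amotl2 was lost under pan-epithelial scaling (-0.78), and those of Amot and Epcam with sex as a covariate (2.45 and 3.48).

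Tjp3 (ZO-3), a scaffold related to Tjp1, was not called and overlapped between groups at 19.0, 15.8 and 27.18 CPM and 18.2, 17.2 and 30.1 CPM (log2 fold change 0.08, SE 0.29, edgeR adjusted p = 0.888).

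Adherens junctions, which lie beside tight junctions and hold the actin belt, were measured through 12 genes, of which 1 was called, higher (2.39% of all genes). That gene was Cdh3, P-cadherin of basal keratinocytes, at 103, 99.5 and 96.8 CPM without SOX2 and 210, 157 and 188 CPM with SOX2 (log2 fold change 0.89, SE 0.14, edgeR adjusted p = 0.027). The call held in 2 of 6 fits with a tumour left out and not with sex as a covariate (0.91). Cdh1, E-cadherin, stood at 638, 667 and 651 CPM and 916, 815 and 765 CPM, apart but not called (log2 fold change 0.35, SE 0.14, edgeR adjusted p = 0.175). The median over the 12 genes was 0.31, with 7 fitted values above 0 and 5 below. Groups did not overlap for 6 genes that were higher and for 3 that were lower, beside 18.2% and 16.0% of all genes. The 3 lower genes, named after their values were seen, were Jup (plakoglobin), Nectin4 and Afdn (afadin), with log2 fold changes of -0.89, -0.66 and -0.36 and none called (edgeR adjusted p = 0.172, 0.253 and 0.184), and Afdn turned to 0.029 under pan-epithelial scaling.

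Of 11 transcription factor genes known to act on claudins or on the epithelial state, edgeR called none (3.90% of all genes), while 6 had an unadjusted p under 0.05 (25.7% of all genes), DESeq2 called 3 (18.2%) and limma 2 (8.77%). Grhl2, a grainyhead factor that activates junction genes, stood at 73.5, 71.0 and 68.0 CPM without SOX2 and 72.4, 67.8 and 78.8 CPM with SOX2 (log2 fold change 0.04, SE 0.11, edgeR adjusted p = 0.844). Grhl3, needed for the epidermal barrier, overlapped too, with 234, 281 and 229 CPM and 101, 262 and 227 CPM (log2 fold change -0.33, SE 0.33, edgeR adjusted p = 0.556), the low value being RBBD12-1j, without which the log2 fold change was -0.020. Klf4, a factor of barrier acquisition, did not overlap, at 1199, 1357 and 1040 CPM and 231, 755 and 707 CPM (log2 fold change -1.09, SE 0.42, edgeR adjusted p = 0.160). Without RBBD12-1j, its lowest tumour, Klf4 had a smaller log2 fold change of -0.72 that was called (adjusted p = 0.042). In that fit 2 of the 11 genes were called lower, beside 3.10% of all genes. Snai2, of the Snail family, did not overlap either, at 20.8, 25.4 and 16.0 CPM and 25.4, 37.2 and 30.4 CPM (log2 fold change 0.58, SE 0.22, edgeR adjusted p = 0.154), although its highest value without SOX2 and its lowest with SOX2 were nearly equal.

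**Figure D4:**
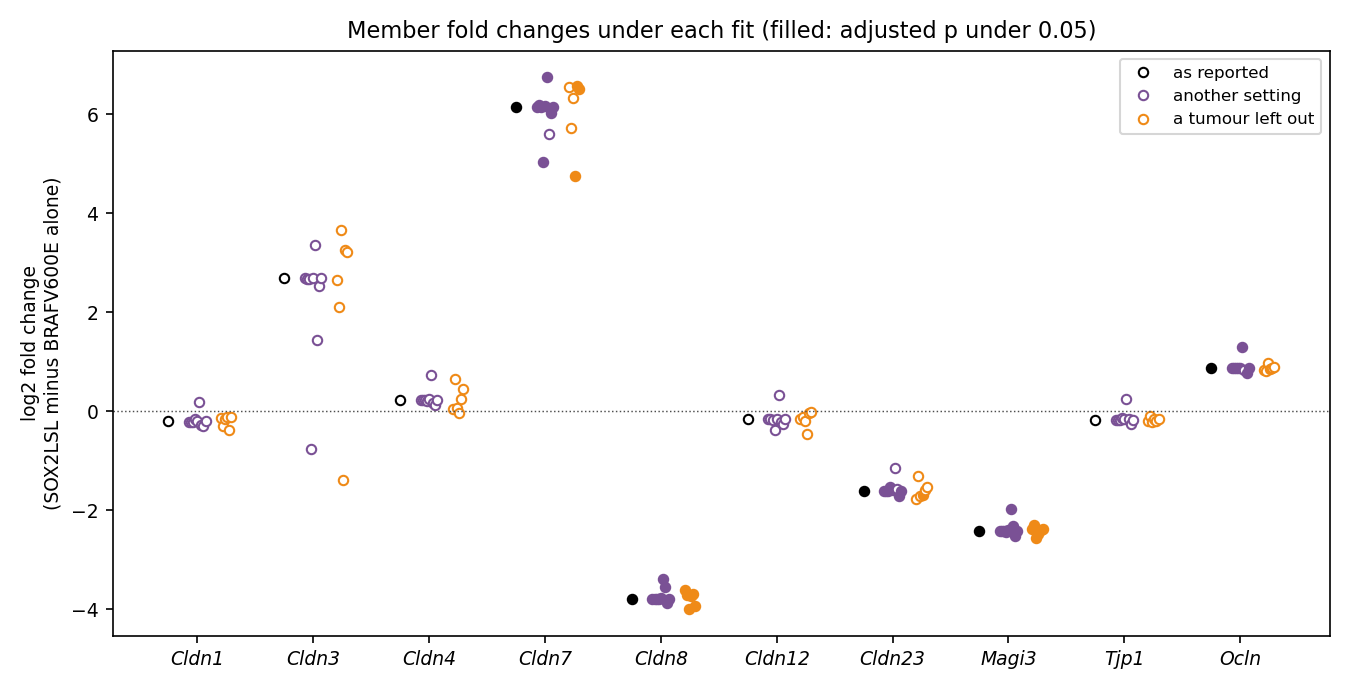
Log2 fold change of each of the 10 genes in the reported fit (black), under 9 other settings (purple) and in 6 fits that each left out 1 tumour (orange), filled where the adjusted p was under 0.05. Cldn8 and Magi3 are filled in every fit; Cldn7, Cldn23 and Ocln keep their side of 0 but lose the call in several, and Cldn3 ranges from -1.39 to 3.65.

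To see which genes followed the pattern of the 2 members called in all fits, the log2 CPM of 14429 other genes with a mean of 1 CPM or more was compared with theirs over the 6 tumours. With only 6 tumours in 2 groups a high Pearson correlation mostly shows the group difference, and it is given as a description. Nearest to Cldn8 were Plk3 (r = 0.997), Gm94 (r = 0.996) and Mcts2 (r = 0.996). Gm94 had 592, 570 and 303 CPM without SOX2 and 24.1, 34.1 and 38.3 CPM with it, a difference of the size of that of Cldn8 (log2 fold changes -3.92 and -3.78). Mcts2 varied over a far smaller range, with a log2 fold change of -0.33, and was not called (edgeR adjusted p = 0.310). Nearest to Magi3 were Stambp (r = 0.999), Noc3l (r = 0.998) and 4921531C22Rik (r = 0.995), with log2 fold changes of -0.75, -0.41 and -0.93. Noc3l and 4921531C22Rik were not called (edgeR adjusted p = 0.096 and 0.063).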

How the data were processed

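RNA from whole mouse tumours was sequenced after ribosomal RNA depletion. The labels list 7 tumours. The deposited values are raw gene counts, made by the authors with Trim Galore, HISAT2 2.1.0 and featureCounts (Subread 1.6.3) on GRCm38, per the labels and the study's methods. Strand-specific counting is not given in the sources used here. Columns were matched to groups by mouse name, and 1 column whose group was uncertain was not used, which left 3 tumours per group from separate mice. Symbols and exon lengths came from GENCODE M21.

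A gene entered the test when any tumour had 5 or more reads, which left 24433 of 55423. Groups were compared with edgeR 4.0.16 (TMM scaling, quasi-likelihood test, Benjamini-Hochberg adjustment, threshold 0.05), first tested on simulated data. The standard error is the log2 fold change divided by the square root of F, and log2 CPM for correlations used a prior count of 2. Counts ranged from 23565432 to 31152826 per tumour, where 3 counts equal 0.0839 to 0.143 CPM. Alternatives were DESeq2 1.42.0, limma 3.58.1 (voom with sample weights), DESeq2 size factors, upper-quartile scaling, scaling by 12 pan-epithelial genes, no filter, filterByExpr, sex as a covariate, no skeletal muscle genes, and each tumour left out. Members and gene lists were chosen with earlier results of these data known. Other genes named were every other claudin called or at 1 CPM or more in a group mean, every called gene of the junction and regulator lists, 12 genes of those lists whatever their values (1 is not reported here), and the 3 genes most like Cldn8 and like Magi3. R 4.3.3 and Python 3.11.15 were used.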

Additional observations from a re-analysis of the deposited data

How the results depend on the processing

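Over all genes, 954 were called in the reported fit, 3653 by DESeq2, 2142 by limma, 1759 without a low-count filter, 228 with sex as a covariate, and 22 to 1575 with a tumour left out, so the background share of calls depends strongly on the tool. Of the 10 members 5 were called in the reported fit, 2 with sex as a covariate and 2 to 5 with a tumour left out. Of the 10 other claudins tested 1 was called in the reported fit and 2 by DESeq2 (3.90% and 18.2% of all genes). With sex as a covariate 0 were called, under pan-epithelial scaling 0, and 0 to 1 with a tumour left out. Of the 36 other tight junction genes tested 4 were called in the reported fit (3.90% of all genes), 18 by DESeq2 (18.2%) and 10 by limma (8.77%). With sex as a covariate 2 were called, and 0 to 6 with a tumour left out. The low counts came without RBAV23-4g (22 over all genes) and without RBAV25-3j (50), the high ones without RBBD12-1j (1575), and leaving out a tumour reduces a group to 2.

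Signs reversed under pan-epithelial scaling for Cldn1 (0.18), Cldn12 (0.33), Tjp1 (0.25) and Afdn (0.029), under limma for Cldn3 (-0.76), and without RBBD12-1j for Cldn3 (range -1.39 to 3.65 with a tumour left out) and Cldn4 (range -0.037 to 0.66), none of them called in the reported fit. So did 4 genes fitted near 0: Tjp3 (-0.015) and Grhl2 (-0.054) under upper-quartile scaling, Magi1 (0.022) and Magi2 (-0.075) under limma, Magi1 (0.37) under pan-epithelial scaling, and with a tumour left out Tjp3 (-0.22 to 0.33), Grhl2 (-0.012 to 0.093), Magi1 (-0.081 to 0.052) and Magi2 (-0.092 to 0.55). The cause was not tested. Cldn8 and Magi3 kept their direction and call in all 15 alternatives. Among 32 named genes under the settings that kept all tumours, 265 values kept direction and call, 10 lost the call, 3 gained it (Marveld2, Lsr and Amotl1, under DESeq2) and 10 reversed. Without division by length, Cldn1 made up 42.2 and 36.5% of the claudin pool without and with SOX2, and Cldn4 35.0 and 40.3%. No paired analysis was possible because the columns carry no replicate numbers. With 3 tumours a group, counts of a few reads (Cldn3, Cldn6, and Cldn7 without SOX2) limit the precision, and intervals cover the spread between tumours only.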
